A study of Bos taurus with 2 samples.

Results

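The genes described here encode the insulin, PI3K-Akt, mTOR and FOXO signaling pathway of muscle. They were chosen by name, as 33 members from the insulin receptor to the glucose transporters, and an array probe was assigned to a member when its accession mapped to that symbol. Of the 33 members, 24 had at least 1 matched probe and 23 had a value, out of 19554 genes with a value on the arrays. No probe was matched to *INSR*, *IRS1*, *IRS2*, *PDPK1*, *TSC1*, *TSC2*, *MTOR*, *EIF4EBP2* or *FOXO1*, and these 9 genes may be on the array under identifiers that the gene table does not hold. The receptor layer (*INSR*, *IRS1* and *IRS2*) therefore had no value.

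The samples were longissimus thoracis (LT) muscle, a back muscle, of Japanese Black fetuses at 8.5 months of gestation (day 260 ± 8.3). In the low-nutrition (LN) group the dams received 60% of their nutritional requirement, in the high-nutrition (HN) group 120%, in both from before pregnancy on, and all were inseminated with male-sorted semen of the same sire. RNA was pooled from 4 fetuses per group, those of the lowest body weight in LN and those of the highest in HN. Each pool was hybridized to 1 array. The methods give group sizes of 5 in LN and 6 in HN, whereas the study's carcass data are headed 5 in HN and 6 in LN. The dams were kept at more than 1 farm, and the farm of each is not stated. Diet and the selection by body weight cannot be told apart, no group was fed at the full requirement, and with 1 array per pool the differences have neither replicates nor a p-value.

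Insulin binds its receptor, whose substrates recruit PI3K. The lipid made by PI3K brings Akt to the membrane, where PDPK1 and the RICTOR-containing mTOR complex phosphorylate it. Akt relieves the brake of TSC1 and TSC2 on RHEB, which activates the RPTOR-containing mTOR complex when amino acids are sensed through the Rag GTPases. That complex drives protein synthesis through S6 kinase and the eIF4E-binding proteins. Akt also keeps FOXO factors out of the nucleus, and it releases the brake of TBC1D4 so that the transporter GLUT4 reaches the cell surface. In skeletal muscle the pathway is known as a main control of protein accretion and glucose uptake, largely through phosphorylation and location of the proteins, which mRNA does not measure.

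*RICTOR* was the member for which the study also designed PCR primers, and these were the only member sequences in the sources used here. They are shown, 5′ to 3′, because they define the other measurement of a member in the study. The PCR was run on all fetuses of both groups and not on the pools, and its values were not analysed here.
RICTOR forward primer: tccgaatacgagggcggaat
RICTOR reverse primer: ctgtggccaatatcacaaagcag
The forward primer has 20 bases and a GC content of 55%, and the reverse primer has 23 bases and a GC content of 47.8%.

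The arrays had similar overall signal. Of the non-control spots, 74.5% were well above background in HN and 70.9% in LN, and none was saturated. The scanner software's error estimate came to 0.20 (median) on the log2 LN/HN scale for a probe measured on both arrays. For the 42 probes printed in several spots, the log2 LN/HN varied between spots with an SD of 0.085. These errors cover the array measurement and not the variation between fetuses. Muscle identity was clear from *ACTA1*, *CKM* and *TNNT3*, with log2 signals between 16.06 and 17.57 in the pools. All values below are quantile-normalized log2 signals or their difference, log2 LN/HN, where a positive value means a higher signal in LN. A gene's value is the mean of its probes, and a gene was called different when its log2 LN/HN was past 0.32 in either direction, the call limit.

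The glucose transporters *SLC2A1* and *SLC2A4* were higher in the LN pool, and the other 21 members with a value lay within the call limit. *SLC2A1*, which encodes the basal transporter GLUT1, was higher by 0.80 (log2 LN/HN), or 1.74-fold. *SLC2A4*, which encodes the insulin-responsive transporter GLUT4, was higher by 0.54, or 1.46-fold. No member was past the limit in the other direction. None passed 2-fold, as 0.997% of all genes did. The 2 called members are 8.70% of the members with a value. Over all genes, 18.0% passed the limit in either direction, 8.85% higher and 9.11% lower. The count of higher members is thus near the background and is not a result about the members as a whole. With the 75th percentile scaling, 30.7% of the called genes over the whole array were higher in LN, against 49.3% here.

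The members as a group differed little between the pools. Their median log2 LN/HN was 0.06, against -0.0033 over all genes, and 15 of the 23 were above 0. The median size of the difference, regardless of sign, was 0.10 in the members and 0.14 over all genes. The members were on the whole brighter, with a median log2 signal of 7.90 against 7.05, and fewer bright genes passed the limit. Among genes at or above the median signal, 8.07% passed it, and of the 15 members in that range only *SLC2A4* did so.

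**Figure D1:**
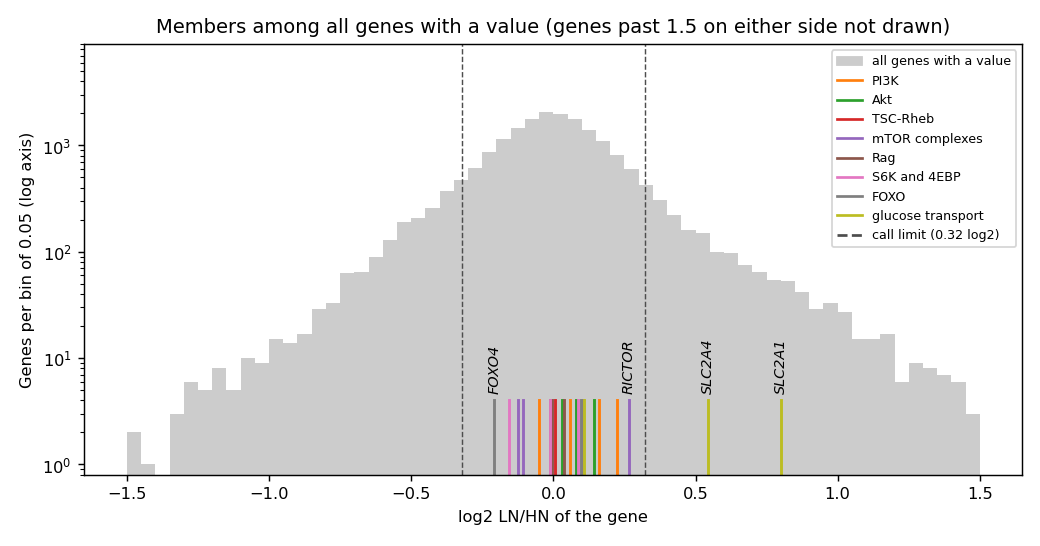
Distribution of log2 LN/HN over all genes with a value (grey bars, genes per bin of 0.05 on a log axis; 33 genes past 1.5 on either side are not drawn), with each measured member as a short coloured line by layer. *SLC2A1* (0.80) and *SLC2A4* (0.54) lie beyond the dashed line of the call limit (0.32), and the other members lie between -0.21 (*FOXO4*) and 0.27 (*RICTOR*).

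For *SLC2A1*, probe 1 had a log2 signal of 7.20 in HN and 7.93 in LN (deposited intensities 147 and 246), a log2 LN/HN of 0.73 ± 0.40 (1.96 times the software's error). Probe 2 was dimmer, with 3.15 in HN and 4.02 in LN (intensities 9.30 and 15.6), a log2 LN/HN of 0.87 ± 0.63. Probe 3 was not well above background on either array, with log2 signals of 1.33 and 2.32. Both measured probes were thus higher in LN by more than their error, and the SD between them was 0.098. *SLC2A1* ranked 296 among the rises of the 19554 genes. It was 0.37, still past the limit, with the normexp background correction, which adds an offset to every signal.

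For *SLC2A4*, the brightest probes had log2 signals of 12.77 and 12.47 in HN and of 13.23 and 12.88 in LN, giving log2 LN/HN values of 0.46 ± 0.40 and 0.42 ± 0.40. The third probe went from 6.76 in HN to 6.97 in LN (0.21 ± 0.40), which is within its error. The dimmest probe went from 4.10 to 5.19 (intensities 17.8 and 35.8), a log2 LN/HN of 1.09 ± 0.46. All 4 probes were higher in LN, with an SD of 0.38 between them, and the gene ranked 709 among the rises. Normexp correction brought it to 0.33, just past the limit.

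*TBC1D4*, the Akt substrate that holds GLUT4 vesicles inside the cell, had 4 probes that did not move together. Its brightest probe was lower in LN (-0.30, from 11.61 in HN to 11.30 in LN), whereas the others gave 0.33, 0.25 and 0.16. All 4 were within 1.96 errors. The mean was 0.11, and its direction depended on the probe taken, from -0.30 with the brightest probe to 0.33 with the probe of the largest change.

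**Figure D2:**
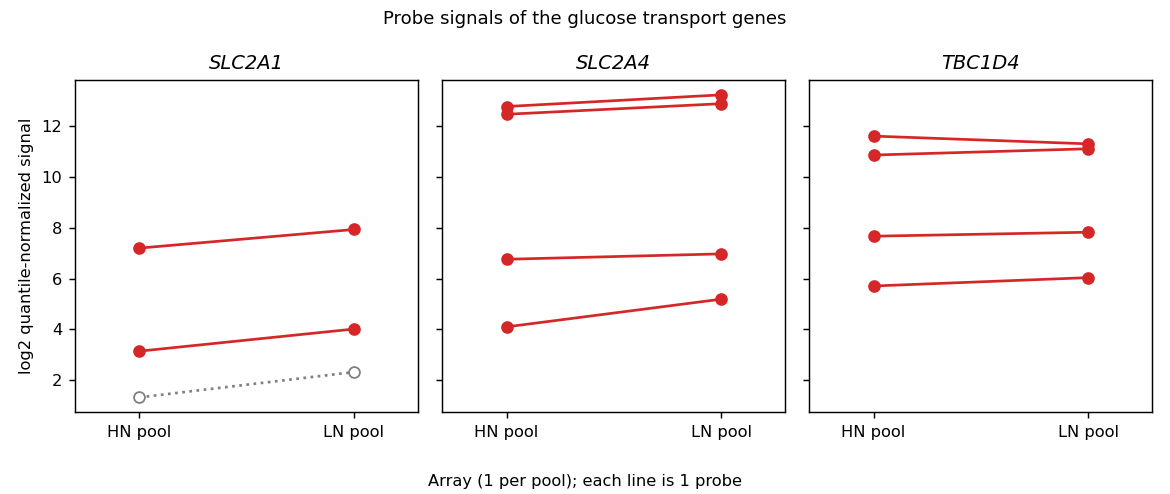
Log2 quantile-normalized signal of each probe of *SLC2A1*, *SLC2A4* and *TBC1D4* in the HN and LN pools (1 array each). Filled red points are probes well above background on both arrays and the open dotted pair is the *SLC2A1* probe that was not; the *SLC2A1* and *SLC2A4* lines all go up from HN to LN, and the brightest *TBC1D4* probe (11.61 in HN, 11.30 in LN) goes down.

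Markers of other cell types also differed between the pools, and fewer cells of a type and less RNA per cell cannot be told apart in such samples. The transporter genes are expressed beyond muscle fibres, GLUT1 in red cells and endothelium, GLUT4 in adipocytes, and their relative GLUT3 (*SLC2A3*) in neutrophils and other blood cells. The 5 neutrophil markers with a value, of 6 listed, were all past the limit higher in LN (0.61 to 1.39), and their summed signal was 1234 in HN and 2150 in LN. *CSF3R* had no matched probe. The 5 fibroblast markers were all above 0, 3 of them past the limit (0.11 to 0.35, summed signal 18359 and 22167). The 5 erythroid markers with a value, of 7, lay between -0.18 and 0.0021 (summed signal 24276 and 23414), and *SLC4A1* was among those not well above background. Of 6 endothelial markers 5 were below 0, between -0.39 and -0.19, of which 1 (*CLDN5*) was past the limit, and *VWF* was at 0.02 (summed signal 5575 and 4404). The *VWF* value is the mean of 5 probes from -0.24 to 0.85, of which only 1 was above 0. Of 5 adipocyte markers 3 had a value, with *FABP4* past the limit at 0.39, *CIDEC* at 0.22 and *PLIN1* at -0.14 (summed signal 461 and 570). *LEP* was not well above background and *ADIPOQ* had no matched probe. The 4 smooth muscle markers were below 0, 3 of them past the limit (-0.49 to -0.29, summed signal 10312 and 8187). Of 6 macrophage markers 5 were below 0, 2 of them past the limit (-0.45 to 0.02 over all 6, summed signal 4350 and 3510). Of the 9 skeletal muscle markers with a value, of 10 listed, 7 were below 0 and 1 (*MB*) was past the limit (-0.37 to 0.01 over all 9, summed signal 1064170 and 1017400), and *TTN* had no matched probe. The part of these cells in the values of *SLC2A1* and *SLC2A4* was not tested.

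In the PI3K layer, the catalytic subunit gene *PIK3CA* had log2 signals of 8.58 in HN and 8.64 in LN, a log2 LN/HN of 0.06 from 1 probe. The other catalytic subunit gene, *PIK3CB*, was dim, and its 4 probes ranged from -0.03 to 0.59 around a mean of 0.22. Of these, 1 probe exceeded 1.96 errors (0.59 ± 0.46, from 4.17 in HN to 4.76 in LN), and it was the only such probe outside the transporters. The regulatory subunit genes gave 0.16 for *PIK3R1* (6.83 in HN, 6.99 in LN) and -0.05 for *PIK3R2*, whose probes were of opposite sign (-0.22 and 0.12). The gene value of *PIK3CB* ranged from 0.07 with the 75th percentile scaling to 0.59, past the limit, with the brightest probe or the probe of the largest change. No member of this layer passed the call limit as reported, and its median was 0.11.

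*AKT1* went from 7.71 in HN to 7.85 in LN, a log2 LN/HN of 0.14, and *AKT2*, the isoform known for insulin-stimulated glucose uptake, had 5.15 and 5.23, a log2 LN/HN of 0.08. Each has 1 probe, and both differences were smaller than 1 error estimate (0.20 and 0.22). The value of *AKT2* was -0.0038 with the 75th percentile scaling. The genes of glycogen synthase kinase, which Akt inhibits, were nearly equal in the pools, at -0.01 for *GSK3A* (probes -0.08 and 0.06) and 0.03 for *GSK3B* (3 probes from -0.0022 to 0.07). *GSK3A* changed sign to 0.01 after cyclic loess.

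*RHEB*, the GTPase that activates mTOR, was the only gene of its layer with a matched probe. Its probes gave 12.16 in both HN and LN and 10.54 and 10.56, a mean log2 LN/HN of 0.0047, which was -0.0069 with the brighter probe.

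In the mTOR complexes, *RICTOR*, the defining subunit of the complex that phosphorylates Akt, had the highest value, a log2 LN/HN of 0.27 from 5 probes. The log2 signals in HN and LN were 9.21 and 9.38 for the brightest probe, 6.79 and 7.04, 5.47 and 5.45, 4.94 and 5.33, and 2.58 and 3.11 for the dimmest. Thus 4 of the 5 probes were higher in LN, by 0.17 to 0.53, and none exceeded 1.96 errors. The gene value went down to 0.11 with the normexp background correction and up to 0.53 with the probe of the largest change. *RPTOR*, the defining subunit of the growth-controlling complex, was not well above background with either probe (log2 signals of 2.47 and 0.45 in HN and 2.58 and 0.44 in LN), so no difference was given. *MLST8*, a subunit of both complexes, had -0.11 (probes -0.07 and -0.15).

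The mTOR inhibitors did not share a direction. *AKT1S1*, whose product PRAS40 restrains mTOR until Akt phosphorylates it, had probes of 12.18 and 10.57 in HN and 12.28 and 10.68 in LN, a log2 LN/HN of 0.10 with an SD of only 0.0095 between probes. *DEPTOR* had -0.13, the mean of a probe of 0.14 (4.53 in HN, 4.67 in LN) and one of -0.40 that was well above background in HN only, so that its size is a lower limit. Its direction turned to 0.14 when only probes well above background on both arrays were used.

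The Rag GTPases, which bring mTOR to the lysosome when amino acids are present, differed between the pools by less than the array error. *RRAGA* had 0.04 (3 probes from -0.04 to 0.11) and *RRAGC* -0.0064 (3 probes from -0.08 to 0.04), and the latter changed sign to 0.03 without normalization. Of the targets of mTOR, *EIF4EBP1*, a brake on cap-dependent translation, had log2 signals of 13.93 and 12.83 in HN and 14.10 and 12.84 in LN, a log2 LN/HN of 0.09. The S6 kinase genes gave -0.01 for *RPS6KB1* (probes -0.05 and 0.03), which was 0.0043 after cyclic loess, and -0.16 for *RPS6KB2* (10.62 in HN and 10.47 in LN, 1 probe).

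The FOXO factors, which Akt silences and which activate atrophy and fasting genes, differed in sign. *FOXO4* had the lowest value of all members, -0.21, from probes of 11.34 and 4.57 in HN and 11.03 and 4.46 in LN, and it stayed below 0 under all 12 alternative settings, between -0.31 and -0.18. *FOXO3* had 0.10 (7.36 and 4.12 in HN, 7.55 and 4.13 in LN). No FOXO probe differed by more than 1.96 errors.

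**Figure D3:**
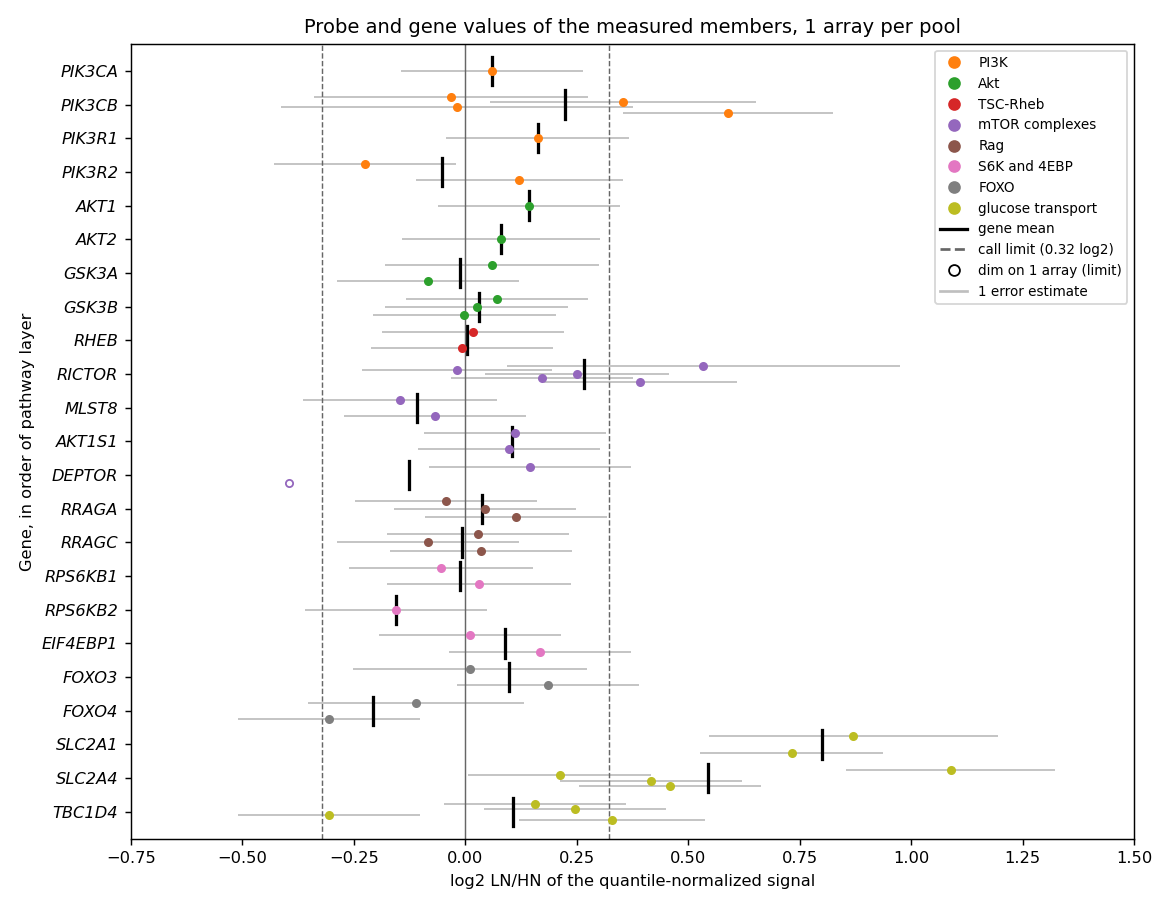
Log2 LN/HN of every measured probe of the 23 members with a value (points, coloured by layer, with 1 software error estimate as a grey bar) and of the gene (black tick, the mean of its probes). The dashed lines mark the call limit (0.32), the open point of *DEPTOR* is a limit from a probe dim in LN and has no error bar, and both tick marks beyond the line belong to *SLC2A1* and *SLC2A4*.

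Over the probes, the members had 56, each printed once, and both arrays measured 52 of them well above background. Of these 52, 6 exceeded 1.96 errors, all of them higher in LN, or 11.5%, against 7.87% of all probes measured on both arrays (3.99% higher and 3.87% lower). The 6 were 5 probes of *SLC2A1* and *SLC2A4* and 1 of *PIK3CB*, and probes of a gene measure the same RNA. Of 17 members with several probes on both arrays, 7 had all probes of the same sign (41.2%), against 58.6% of all such genes. The 7 were *AKT1S1*, *EIF4EBP1*, *FOXO3*, *FOXO4*, *MLST8*, *SLC2A1* and *SLC2A4*. The SD between the probes of a gene was 0.11 (median) in the members and 0.11 over all genes.

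The sign of the value held in all 12 alternative settings for 16 of the 23 members, and changed in at least 1 for *AKT2*, *GSK3A*, *RHEB*, *DEPTOR*, *RRAGC*, *RPS6KB1* and *TBC1D4*. *SLC2A1* ranged from 0.37 to 0.87 and *SLC2A4* from 0.33 to 1.09, past the call limit in each setting.

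**Figure D4:**
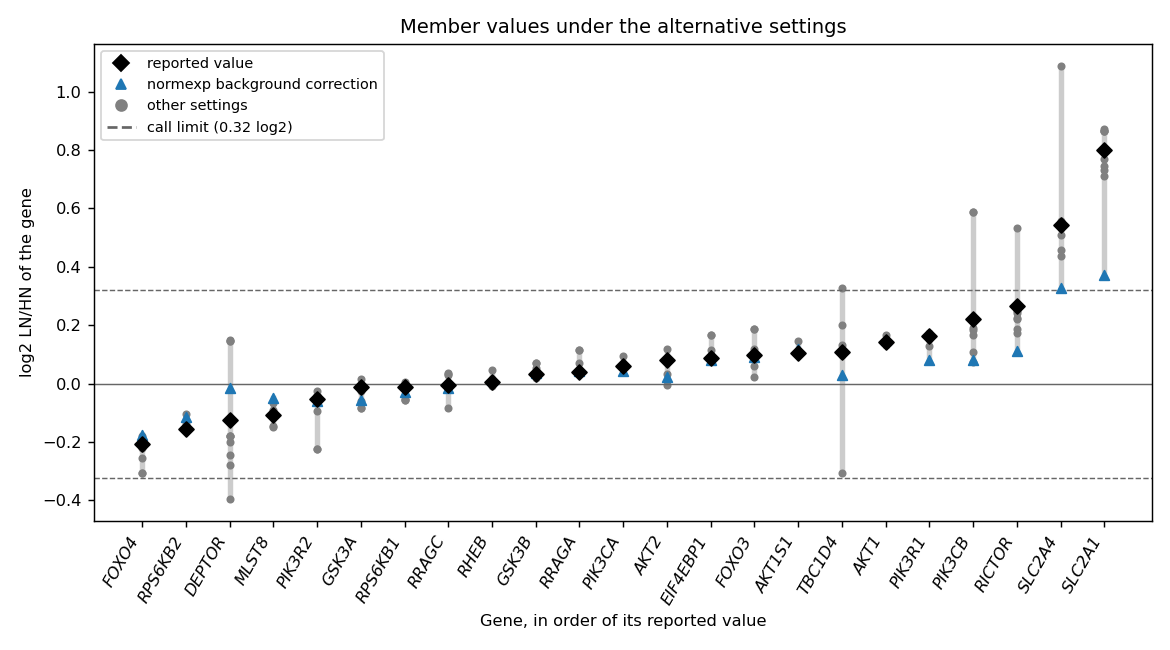
Log2 LN/HN of each member under the 12 alternative settings (grey points, blue triangle for the normexp background correction, grey line for the range) with the reported value as a black diamond. *SLC2A1* and *SLC2A4* stay above the dashed call limit (0.32), from 0.37 and 0.33 upwards, while *DEPTOR* and *TBC1D4* cross 0.

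Other genes of the pathway, a list of 116 genes that act beside the members, were likewise mostly equal in the pools. Of the 116, 94 had a value, 19 had no matched probe and 3 (*SOCS3*, *PIK3R3* and *PRR5L*) were not well above background. Their median log2 LN/HN was 0.0039, with 4 genes past the limit higher and 5 lower. That is 9.57% of those with a value, against 18.0% over all genes and 8.07% of genes at or above the median signal, and their median log2 signal was 8.48 against 7.05. None of the 11 measured adaptors and brakes of the receptor, the 8 other PI3K and lipid phosphatase genes, the 4 partners of the mTOR complexes, the 19 genes of lysosomal amino acid sensing or the 6 translation targets passed the call limit.

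Among inputs to TSC and mTOR, the stress-induced inhibitors differed in opposite directions. *DDIT4* (REDD1), an inhibitor of mTOR signaling induced by glucocorticoids and low oxygen, had log2 signals of 13.65 and 12.24 in HN and 13.15 and 11.72 in LN, a log2 LN/HN of -0.51 with probes of -0.49 and -0.52. Its relative *DDIT4L* had -0.32, at the limit of the call, and was inside it in 3 of the 12 settings, at -0.29 without normalization, -0.30 with normexp and -0.31 in the authors' values. *SESN2*, a leucine sensor and ATF4 target, was higher, from 3.64 in HN to 4.45 in LN (0.81, 1 probe), but only 0.16 with the normexp background correction. *SESN1* had 0.21, and the AMPK catalytic subunit genes had 0.04 for *PRKAA1*, whose 8 probes ranged from -0.42 to 0.31, and -0.01 for *PRKAA2*.

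Among proteins that act on Akt, the pseudokinase genes differed. *TRIB3*, known to bind Akt and induced by ATF4, had a log2 LN/HN of 1.11, but its 3 probes did not share a direction (1.98, 2.01 and -0.66). Its value was 0.52 with the normexp background correction and 2.06 in the authors' values. *TRIB1* had -0.37 (probes -0.44 and -0.30), which was -0.23 with the normexp background correction, and *TRIB2* had -0.02. The kinase gene *SGK1*, whose product shares targets with Akt, had 0.0036.

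The amino acid sensing genes at the lysosome ranged from -0.15 (*FLCN*) to 0.18 (*SEH1L*), with a median of 0.03. The Ragulator subunits *LAMTOR1* to *LAMTOR5* lay between -0.14 and 0.15. The translation targets gave 0.09 for *RPS6*, the substrate of S6 kinase, over 7 probes, 0.08 for *EIF4E* and 0.30 for *PDCD4*, an inhibitor of translation that S6 kinase marks for degradation. Of the subunit genes specific to the complex of *RICTOR*, *MAPKAP1* had 0.23 (4 probes from 0.05 to 0.38) and *PRR5* -0.25, beside -0.11 for the shared subunit gene *MLST8*.

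The FOXO targets had no common direction, with 6 of 13 above 0 and a median of -0.03. *PDK4*, which shuts off glucose oxidation in fasting, was lower in LN with all 8 probes (-1.28, or -0.84 with the normexp background correction), and *BNIP3*, a mitophagy receptor, had -0.35 (probes -0.45 and -0.24), which was -0.30, inside the limit, without normalization. *KLF15*, a fasting and glucocorticoid-induced factor, was higher at 0.61 from 1 of its 2 probes (9.34 in HN, 9.95 in LN). With dim probes also counted the value was 0.31. The ubiquitin ligases of muscle atrophy had -0.20 (*FBXO32*) and -0.08 (*TRIM63*).

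Of the genes that work with the glucose transporters, 14 of 15 lay within the call limit. The exception was *SLC2A3*, which encodes GLUT3, with a log2 LN/HN of 0.41 and 4 measured probes of 0.62, 0.40, 0.37 and 0.25. It was inside the limit at 0.17 with the normexp background correction, at 0.25 without a filter and at 0.29 with positive and significant probes. The 5 neutrophil markers were higher by 0.61 to 1.39, and their part in the *SLC2A3* value was not tested. *VAMP2*, the SNARE of the GLUT4 vesicle, had 0.08, and the plasma membrane SNAREs *SNAP23* and *STX4* had 0.22 and -0.06. The transporter genes *SLC2A8*, *SLC2A10* and *SLC2A12* had 0.10, -0.20 and -0.21, so the higher signal of *SLC2A1*, *SLC2A3* and *SLC2A4* was not shared by every transporter gene measured.

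**Figure D5:**
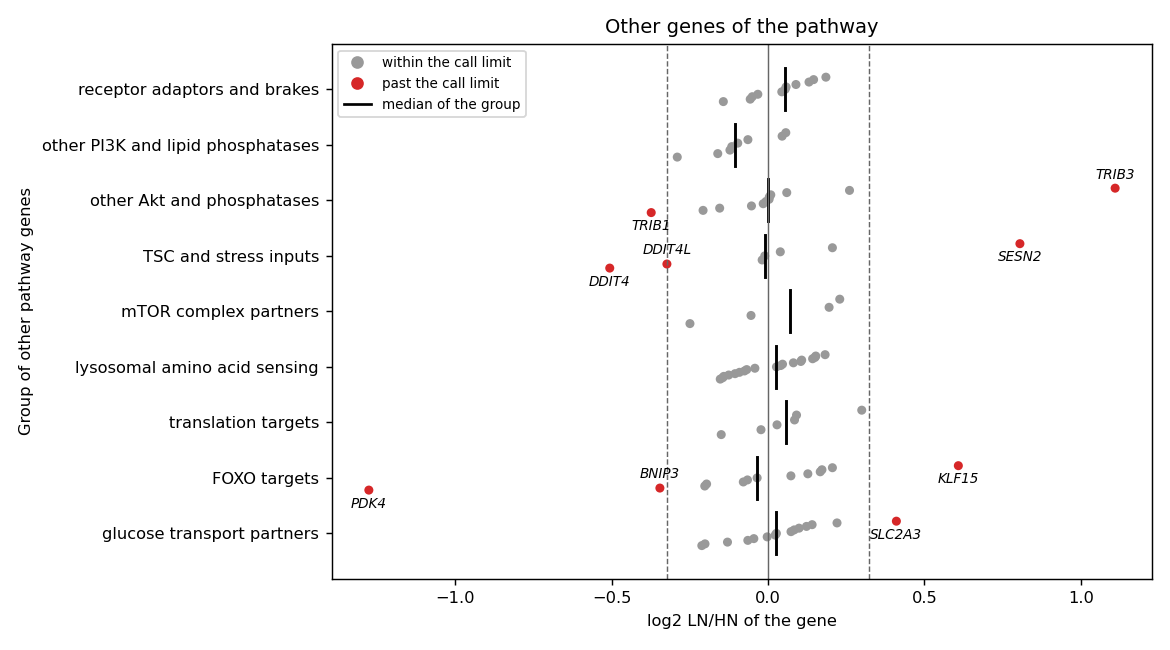
Log2 LN/HN of the other pathway genes with a value, 1 point per gene, by group, with the group median as a black line and dashed lines at the call limit (0.32). The 9 genes past the line (red, named) lie in 4 of the 9 groups, from *PDK4* (-1.28) to *TRIB3* (1.11), and all group medians lie between -0.11 and 0.07.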

How the data were processed

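Each pool was measured on 1 one-color Agilent Bovine (v2) array. The authors extracted the spots with Agilent Feature Extraction 11.0.1.1 and deposited background-corrected, detrended intensities that were not normalized between the arrays, with flags and errors per spot. They also deposited log2 values, which GeneSpring GX had quantile-normalized, for 30026 of the 43652 probes used here. The scale of that table was judged from its values.

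Log2 intensities were quantile-normalized with limma 3.58.1 in R 4.3.3, the method the authors state, and handled in Python 3.11.15 with numpy 2.4.6, pandas 2.3.3 and matplotlib 3.10.9. The 13 spots flagged as outliers on at least 1 array were left out. A probe had to be well above background on at least 1 array, and a dim value was replaced by the lowest signal so marked on that array (log2 2.27 in HN, 2.82 in LN) unless higher. A probe whose difference then vanished or turned was left out. Accessions were matched to symbols of assembly ARS-UCD2.0 (26742 probes), and no coordinates are given because the array refers to another build.

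No test was possible with 1 array per pool. The named genes are all members and the listed pathway genes past the call limit, besides others described as examples of their group. The members, gene lists, markers and alternatives were chosen with earlier results of these data known. The alternatives were other scalings, the normexp background correction with offset 50 (on median signals, as the files hold no mean signals), the authors' values, other filters on dim probes, and other summaries over probes. The steps were tested on simulated data. Values of some listed genes are not reported here.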

Additional observations from a re-analysis of the deposited data

How the results depend on the processing

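Of 384 comparisons of a gene value with its value under an alternative, 360 moved by less than the spread between probes (the median spread where a gene has 1 probe), 24 moved by more and none of the called genes changed sign. The count of 2 members higher and 0 lower became 5 and 1 with the probe of the largest change and 3 and 0 with the brightest probe, where *PIK3CB* entered, and 0 of the reported member values passed 2-fold, while *SLC2A4* was 1.09 with the probe of the largest change. The median of the members stayed between 0.02 and 0.08. For the other pathway genes, the 4 higher became 2 with the normexp background correction, 7 with the probe of the largest change and 1 at 2-fold. The 5 lower became 8 with the 75th percentile scaling, 8 without a filter on dim probes, 8 with positive and significant probes, 3 without normalization, 3 with normexp, 14 with the probe of the largest change and 1 at 2-fold. The glucose transport median of 0.54 was 0.33 with normexp, 0.44 with the median of probes and 0.87 with the probe of the largest change. The mTOR complex median of -0.0016 was 0.12 in the authors' values, 0.12 with probes well above background on both arrays, 0.10 with positive and significant probes, where *RPTOR* entered, and 0.12 with the brightest probe. The medians of the TSC-Rheb layer, of the S6K and 4EBP layer and of the other pathway genes, all close to 0, changed sign in at least 1 setting. The share of higher genes among all called genes was 49.3%, 30.7% with the 75th percentile scaling and 39.3% without normalization, and normexp left 319 higher and 386 lower genes in place of 1731 and 1781. The normexp offset shrinks differences of dim probes by construction, and the cause of the other changes was not tested. No paired analysis was possible because each group has 1 array. Signal close to background limited *RPTOR*, *DEPTOR*, *PIK3CB*, *SESN2*, the dimmer probes of *SLC2A1* and *TRIB3*, and the dimmest probe of *SLC2A4*.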
